A study of Mus musculus with 12 samples.

Results

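Small leucine-rich proteoglycans are secreted matrix proteins with a curved core of leucine-rich repeats, and most of them carry chondroitin, dermatan or keratan sulfate chains. In cartilage they coat collagen fibrils, set fibril diameter and spacing, and bind growth factors such as TGF-β. The class I members decorin, biglycan and asporin, the class II members fibromodulin, lumican, PRELP and osteomodulin, and the class III member osteoglycin differ in their chains and in the sites they occupy on the fibril.

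The genes examined were Dcn, Bgn, Aspn, Fmod, Lum, Prelp, Omd and Ogn, found by their symbol without regard to case. Of 45281 probes on the array, 15 carried 1 of these 8 symbols, and 12 of the 15, for 7 genes, were among the 21004 probes of the normalized table. All 12 were detected on all 12 arrays (detection p under 0.05). The only Aspn probe lay outside the table, with signal intensities of 104 to 161 and detection p-values of 0.290 to 0.834, so Aspn was not measured above background. The remaining Ogn probes outside the table, 2 in number, were also undetected on all 12 arrays.

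RNA came from femoral head (hip) cartilage of C57BL6 mice, aged 4 to 6 weeks by the labels and 5 to 6 weeks by the methods, and was hybridized to Illumina mouse BeadChips. Control and injured hips of WT mice and of MAPK9 KO mice (Mapk9 KO below), which lack a c-Jun N-terminal kinase, made 4 groups of 3 arrays, and each array held 6 hips pooled from 3 mice. Injury was avulsion of the femoral epiphysis. By the methods, control hips were also taken by avulsion but were snap-frozen at once. Injured hips were kept 4 h in serum-free medium, so that injury, time and culture cannot be told apart. The comparisons addressed how injury changed the transcripts in each genotype and whether the genotypes differed.

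The arrays detected 16930 to 18969 probes each, with a median signal of 121 to 190 before normalization and correlations of 0.868 to 0.986 between arrays. At the brighter Mapk9 probe the 6 WT arrays lay between 10.05 and 10.90 and the 6 KO arrays between 8.69 and 9.28 on the log2 scale, with no overlap. The sources used here do not say where the deletion lies relative to the probe. Values below are the deposited normalized log2 signals, fold changes are injured over control from limma, and the adjusted p is by Benjamini-Hochberg over all 21004 probes. A probe was called when its fold change was above 2 and its adjusted p under 0.05. Signals of different probes are not comparable as levels, and in whole tissue fewer cells of a type and less RNA per cell cannot be told apart.

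Probe sequences are shown for Dcn, whose probes differed in their calls, and for Lum and Ogn, whose probes were downregulated in at least 1 genotype. They are the first 30 of the 50 bases, 5′ to 3′, as deposited, named by the base of the transcript record at which the probe starts, and no base is marked by capitals.
Dcn, base 7: gcgctcacgcagtgaaaccttagttcttaa
Dcn, base 701: caccaagctgcggaaatccgacttcaatgg
Dcn, base 1260: gtgcgttctgccattcaacttggaaactac
Dcn, base 3633: ggaggcccagcagttgagccaaaggttaat
Lum, base 1002: gatcaagcatctgcgcttggatggcaatcc
Lum, base 1190: aatatccttctcgttgctggtggtattact
Ogn, base 2330: tgtgtccatgactcattttctctgtgactg
None of the 12 family probes shared a stretch of 20 bases with another probe of the table on either strand. The Dcn probes at bases 7, 701 and 1260 belong to 1 RefSeq transcript record and the probe at base 3633 to another cDNA record. RefSeq lists 2 transcripts for Dcn and the files do not say which of them each probe reads.

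In RefSeq (GRCm38.p6) most of the family sits in clusters of neighbouring genes. Dcn and Lum are adjacent on chromosome 10, Prelp and Fmod on chromosome 1, and Aspn, Omd and Ogn lie in a row on chromosome 13. Bgn is on the X chromosome, where 322 protein-coding genes separate it from Nyx, the other family gene there. Lum was downregulated while 3 of the 4 Dcn probes were not called, and Ogn was downregulated while its neighbour Omd was not called. Neither Prelp nor its neighbour Fmod was called in either genotype. The difference between neighbours was not tested.

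Ogn and Lum (both probes in WT, 1 of 2 in Mapk9 KO) were downregulated post injury in both genotypes, and Dcn was downregulated at 1 of its 4 probes. In WT, 4 of the 12 probes (3 genes) were called lower, where 7.14% of all probes were, and the same 4 passed with no fold limit, where 12.7% of all probes did. The methods' t-test called 3 of them lower (background 3.05%), and 5 probes were lower at an unadjusted p under 0.05 (background 19.0%). No family probe was called higher by limma in WT (7.55% of all probes were, and 12.6% with no fold limit). The methods' t-test also called 0 higher (background 4.68%), and 1 probe, of Prelp, was higher at an unadjusted p under 0.05, as were 18.0% of all probes. In Mapk9 KO, 3 probes were called lower (background 9.14%) and 4 with no fold limit (background 19.3%). The methods' t-test called 3 lower (background 7.81%), and 4 were lower at an unadjusted p under 0.05 (background 23.9%). There 0 family probes were called higher by limma (background 9.59%) or by the methods' t-test (background 8.14%), but 4 were higher with no fold limit (background 19.0%), namely both Fmod probes, the Prelp probe and the Dcn probe at base 3633, all 4 also at an unadjusted p under 0.05 (background 23.0%). Control and injured arrays did not overlap at 6 of the 12 probes in WT (41.2% of all probes) and at 8 in Mapk9 KO (49.7%). The median log2 fold change over the 12 probes was -0.08 in WT and -0.13 in Mapk9 KO, against -0.02 over all probes in both, so the median of the family lay close to that of all probes.

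**Figure D1:**
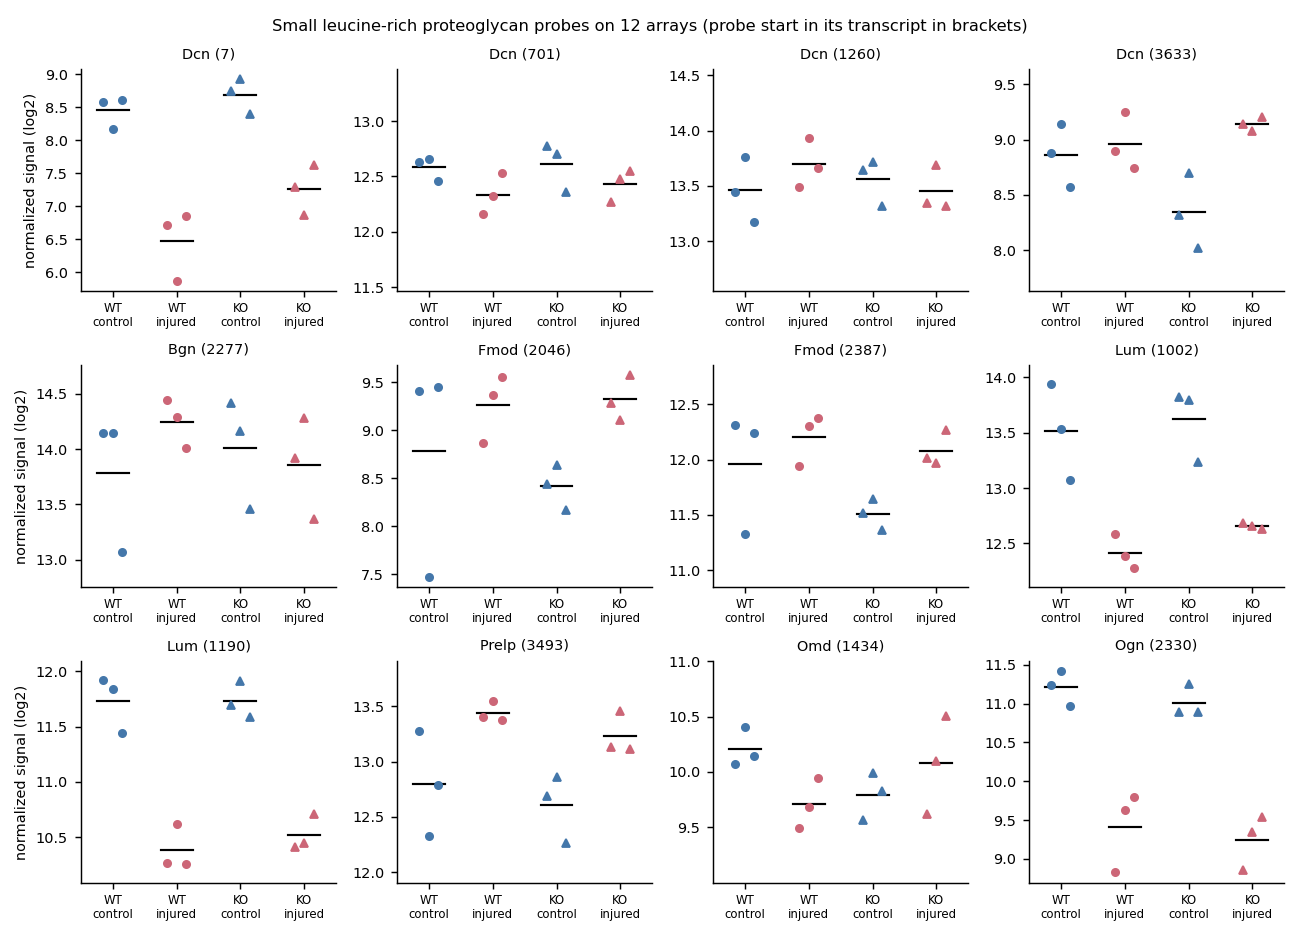
Normalized log2 signal (y axis) of each of the 12 probes in the 4 groups (x axis), 1 point per array, circles for WT and triangles for Mapk9 KO, blue for control and red for injured, with a bar at the group mean. The y axes have different ranges of at least 2 log2 units, and Lum, Ogn and the Dcn probe at base 7 show injured arrays below all control arrays in both genotypes.

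Decorin is the class I member that carries a single glycosaminoglycan chain, binds type I and II collagen fibrils and holds TGF-β. At base 1260, the brightest Dcn probe, the WT control arrays read 13.44, 13.76 and 13.17 and the WT injured arrays 13.49, 13.93 and 13.66. At the same probe the Mapk9 KO control arrays read 13.65, 13.72 and 13.32 and the injured arrays 13.35, 13.69 and 13.32. Control and injured arrays overlapped in both genotypes, and the log2 fold changes were 0.24 in WT (95% interval -0.26 to 0.74, adjusted p = 0.489) and -0.11 in KO (-0.53 to 0.31, adjusted p = 0.694). With 1 array left out they were 0.092 (without control replicate 3) to 0.39 (without control replicate 2) in WT and -0.032 (without control replicate 2) to -0.23 (without control replicate 3) in KO. Both intervals of the full fit leave out a doubling or a halving.

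At base 701 the log2 values were 12.63, 12.66 and 12.46 in WT control and 12.16, 12.32 and 12.53 in WT injured. In Mapk9 KO they were 12.78, 12.70 and 12.36 in control and 12.27, 12.47 and 12.55 in injured cartilage. The groups overlapped again, with log2 fold changes of -0.25 (95% interval -0.69 to 0.19, adjusted p = 0.401) and -0.18 (-0.59 to 0.23, adjusted p = 0.480). The WT change was -0.50 (adjusted p = 0.0683) with normexp and quantile normalization and -0.49 (adjusted p = 0.0278, under the fold limit) with quantile normalization and no background correction, and -0.16 without WT injured replicate 1. The KO change was -0.10 (without control replicate 1) to -0.31 (without control replicate 3) with 1 array left out.

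The Dcn probe at base 7, close to the start of the transcript record, was called lower in both genotypes. It read 8.59, 8.18 and 8.61 on the WT control arrays and 6.71, 5.88 and 6.86 on the WT injured arrays. Its values in Mapk9 KO were 8.74, 8.93 and 8.40 in control and 7.30, 6.87 and 7.63 in injured cartilage. Every injured array was below every control array. The fall was 3.93-fold in WT (log2 fold change -1.98, standard error 0.28, adjusted p = 0.00077) and 2.69-fold in KO (-1.43, standard error 0.23, adjusted p = 0.000644). This was also a dim probe, with signal intensities of 143 to 759 and a detection p-value up to 0.0438. Without background correction the change shrank to -1.17 in WT and to -0.98 in KO, which in KO is under the fold limit.

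At base 3633 the WT arrays overlapped, with 8.88, 9.14 and 8.57 in control and 8.90, 9.25 and 8.74 in injured cartilage (log2 fold change 0.10, 95% interval -0.41 to 0.61, adjusted p = 0.798). In Mapk9 KO the control arrays read 8.32, 8.70 and 8.02 and the injured arrays 9.14, 9.08 and 9.20, with all injured arrays higher. The KO change of 0.79 (standard error 0.20, adjusted p = 0.00952) was under the fold limit.

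**Figure D2:**
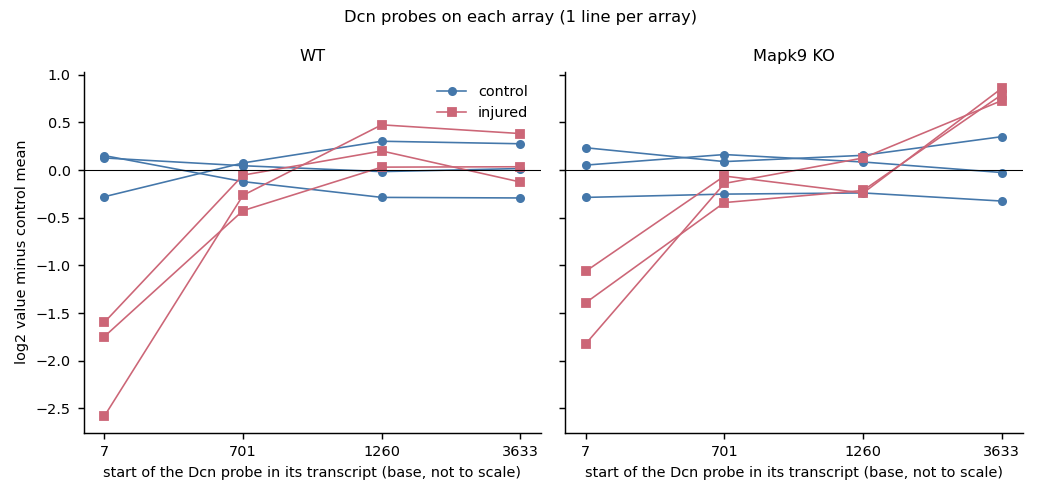
Log2 value of the 4 Dcn probes (x axis, by start in the transcript record, not to scale) on each array, minus the mean of the control arrays of the same genotype (y axis, log2), with 1 line per array, blue circles for control and red squares for injured. On the injured arrays the probe at base 7 lies below 0 on all 6 arrays while at base 3633 the 3 KO injured arrays lie 0.73 to 0.86 above the control mean. At base 701 all 6 injured arrays lie below 0, down to -0.43, and at base 1260 they lie on both sides of 0.

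Whether probes of 1 gene changed alike was tested on the difference between 2 probes within each array, with control and injured labels exchanged within genotype (exact permutation test, 400 relabelings, two-sided, smallest possible p 0.005, 8 pairs, Benjamini-Hochberg adjusted). Relative to the probes at bases 701, 1260 and 3633, the Dcn probe at base 7 changed by -1.49, -1.76 and -2.15 on the log2 scale, averaged over the genotypes (exact p = 0.005 and adjusted p = 0.0133 for each). The probe at base 701 also fell by 0.66 relative to the probe at base 3633 (exact p = 0.015, adjusted p = 0.03). The probes at 701 and 1260 differed by -0.28 in their change (exact p = 0.06, adjusted p = 0.0933), and those at 1260 and 3633 by -0.38 (exact p = 0.105, adjusted p = 0.105). Over the 12 arrays the base 7 probe had a Pearson r of 0.66 with the base 701 probe and of -0.38 with the base 1260 probe. With the arrays paired by replicate number, the base 7 probe fell relative to each of the others in all 6 array pairs. Exchanging labels only within pairs gave the smallest p that 6 pairs allow (exact p = 0.03125) for these 3 comparisons and for base 701 against base 3633, each with an adjusted p of 0.05, which is not under the threshold. The pattern at base 7 was already known when these tests were chosen.

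Biglycan, the class I relative of decorin with more than 1 glycosaminoglycan chain, is a ligand of Toll-like receptors when it is released from the matrix. Its probe at base 2277 had signal intensities of 12744 to 24222. It read 14.14, 14.14 and 13.07 on the WT control arrays and 14.45, 14.29 and 14.01 on the WT injured arrays. In Mapk9 KO it read 14.41, 14.17 and 13.46 in control and 13.92, 14.28 and 13.36 in injured cartilage. Replicate 3 was the lowest of each group, and the groups overlapped. Neither change passed the test, with log2 fold changes of 0.46 in WT (95% interval -0.20 to 1.13, adjusted p = 0.293) and -0.16 in KO (-0.80 to 0.48, adjusted p = 0.709). The WT change was 0.11 without WT control replicate 3 and 0.16 with quantile normalization, with or without background correction.

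Fibromodulin, a class II member that carries keratan sulfate and shares a collagen binding site with lumican, had 2 probes. At base 2387 the values were 12.31, 11.33 and 12.24 in WT control, 11.94, 12.30 and 12.38 in WT injured, 11.52, 11.65 and 11.36 in KO control and 12.01, 11.97 and 12.27 in KO injured cartilage. At base 2046 they were 9.41, 7.47 and 9.46, then 8.86, 9.37 and 9.56, then 8.44, 8.64 and 8.16, then 9.28, 9.11 and 9.57 in the same order of groups. WT control replicate 2 stood well below its group at both probes, and the KO injured arrays were above all KO control arrays at both. In WT the log2 fold changes were 0.25 (base 2387, adjusted p = 0.572) and 0.48 (base 2046, adjusted p = 0.491), and without WT control replicate 2 they were -0.072 and -0.17, so the direction in WT rested on that array. With quantile normalization the WT change at base 2387 was 0.017 with and 0.014 without background correction. In Mapk9 KO they were 0.57 (95% interval 0.18 to 0.96, adjusted p = 0.0251) and 0.91 (0.47 to 1.35, adjusted p = 0.00424), both under the fold limit. The base 2046 probe passed the limit without KO control replicate 2 (1.02) or without KO injured replicate 2 (1.01). The change differed between the probes by 0.29, which did not pass (exact p = 0.085, adjusted p = 0.0971), and the probes had an r of 0.95 over the 12 arrays.

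Lumican, the keratan sulfate proteoglycan that limits the thickness of collagen fibrils, was downregulated at both of its probes in WT and at 1 of them, at base 1190, in Mapk9 KO. At base 1190 the WT control arrays read 11.92, 11.84 and 11.44 and the WT injured arrays 10.27, 10.62 and 10.26. The Mapk9 KO arrays at this probe read 11.69, 11.91 and 11.58 in control and 10.41, 10.45 and 10.71 in injured cartilage. All injured arrays lay below all control arrays, a 2.55-fold fall in WT (log2 fold change -1.35, standard error 0.22, adjusted p = 0.00161) and a 2.31-fold fall in KO (-1.21, standard error 0.18, adjusted p = 0.000383).

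At base 1002 Lum read 13.94, 13.53 and 13.07 in WT control, 12.58, 12.39 and 12.28 in WT injured, 13.83, 13.80 and 13.24 in KO control and 12.68, 12.66 and 12.63 in KO injured cartilage. The injured arrays were again below all control arrays of their genotype. The WT fall was 2.14-fold (-1.10, standard error 0.25, adjusted p = 0.00928). The KO fall of 1.95-fold (-0.97, standard error 0.20, adjusted p = 0.00298) was just under the fold limit. This probe stood close to the limit in both genotypes: without WT control replicate 1 the WT change was -0.88 and not called, and without KO control replicate 3 the KO change was -1.16 and called. The methods' t-test did not call it in WT (adjusted p = 0.0796). The change differed by 0.25 between the Lum probes, which did not pass (exact p = 0.07, adjusted p = 0.0933). The difference had the same sign in all 6 array pairs (paired exact p = 0.03125, adjusted p = 0.05), and the r of the probes was 0.94 over the 12 arrays.

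PRELP, a class II member with a basic end that binds heparan sulfate and links the fibril to basement membrane and cell surface, had higher values on the injured arrays. Its probe read 13.27, 12.33 and 12.79 on the WT control arrays and 13.41, 13.55 and 13.38 on the WT injured arrays. The Mapk9 KO arrays read 12.69, 12.86 and 12.27 in control and 13.13, 13.46 and 13.12 in injured cartilage. All 6 injured arrays were above the control arrays of their genotype. The log2 fold change was 0.65 in WT (95% interval 0.09 to 1.21, adjusted p = 0.0885), which did not pass, and 0.63 in KO (0.18 to 1.08, adjusted p = 0.0312), which passed with no fold limit. The WT change was 0.41 without WT control replicate 2, the lowest WT array, 0.88 (adjusted p = 0.0343) without WT control replicate 1, and 0.36 with quantile normalization, with or without background correction. The adjusted p in KO was 0.0281 to 0.105 with 1 array left out.

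Osteomodulin, a keratan sulfate proteoglycan best known from bone matrix, had changes of opposite sign in the genotypes, and neither passed. It read 10.07, 10.41 and 10.15 in WT control and 9.49, 9.68 and 9.95 in WT injured cartilage, with no overlap. In Mapk9 KO it read 9.56, 9.99 and 9.82 in control and 9.62, 10.10 and 10.51 in injured cartilage, with overlap. The log2 fold changes were -0.50 in WT (95% interval -0.97 to -0.04, adjusted p = 0.108) and 0.29 in KO (-0.24 to 0.81, adjusted p = 0.379). The KO change was 0.070 without KO injured replicate 3, 0.17 without KO control replicate 1 and 0.51 without KO injured replicate 1. The WT change had an adjusted p of 0.0323 with quantile normalization and no background correction (-0.51, under the fold limit).

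Osteoglycin, the class III member also called mimecan, showed the largest fall among the family probes other than Dcn at base 7. Its probe at base 2330 read 11.23, 11.42 and 10.97 on the WT control arrays and 8.83, 9.63 and 9.79 on the WT injured arrays. The Mapk9 KO values were 10.89, 11.25 and 10.89 in control and 8.86, 9.35 and 9.54 in injured cartilage. The injured arrays were more than 1 log2 unit below every control array of their genotype. The fall was 3.46-fold in WT (-1.79, standard error 0.27, adjusted p = 0.00121) and 3.39-fold in KO (-1.76, standard error 0.21, adjusted p = 0.000101).

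**Figure D3:**
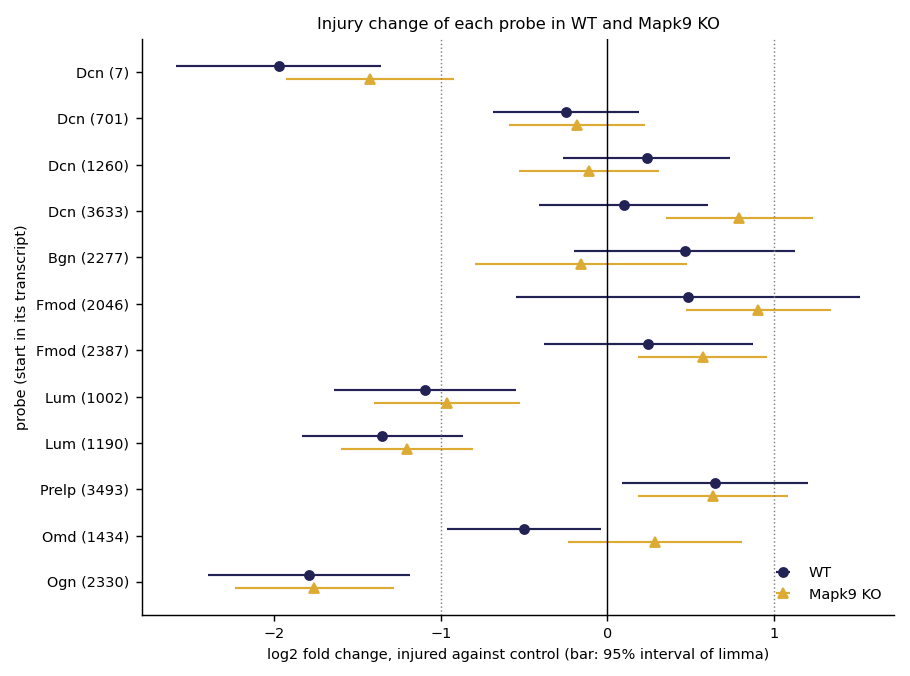
Log2 fold change of injured over control cartilage (x axis) for each probe (y axis) in WT (circles) and Mapk9 KO (triangles), with the 95% interval of limma and dotted lines at the fold limit of 2 in either direction. Ogn, both Lum probes and the Dcn probe at base 7 lie left of 0 with their whole interval in both genotypes, and the intervals of WT and Mapk9 KO overlap at every probe.

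No family probe was called between the genotypes. In control cartilage 0 of the 12 probes were called between Mapk9 KO and WT by limma (0.119% of all probes were), 0 by the methods' t-test (background 0.0%), and 0 reached an unadjusted p under 0.05 (background 6.46%). WT and KO control arrays did not overlap at 1 probe, where 10.8% of all probes did not: Omd had a mean of 9.79 in KO and 10.21 in WT (log2 difference -0.42, adjusted p = 0.828). In injured cartilage 0 were called by limma (background 0.181%) or by the methods' t-test (background 0.0%), and 1 reached an unadjusted p under 0.05 (background 12.6%): the Dcn probe at base 7, which was 0.78 higher on the log2 scale in injured KO than in injured WT cartilage (adjusted p = 0.308), and 0.48 without WT injured replicate 2 or 0.38 without background correction. The injured arrays of the genotypes did not overlap at this probe and at Lum base 1002, which was 0.24 higher in KO (adjusted p = 0.567), against 16.8% of all probes. The interaction, the difference between the injury changes of the genotypes, was called at 0 of the 12 family probes and at 0.0% of all probes. At an unadjusted p under 0.05 there were 2 of the 12, where 9.94% of all probes were. Osteomodulin had an interaction of 0.79 (standard error 0.32, unadjusted p = 0.0272 and adjusted p = 0.432 by limma) and the Dcn probe at base 3633 of 0.69 (unadjusted p = 0.0371, adjusted p = 0.466). For Ogn the interaction was 0.03 (95% interval -0.75 to 0.81). For Lum it was 0.13 (-0.55 to 0.82) at base 1002 and 0.15 (-0.43 to 0.72) at base 1190, rising to 0.42 and 0.31 with normexp and quantile normalization, and for Dcn at base 7 it was 0.55 (-0.27 to 1.37). In this fit the intervals for Ogn and Lum leave out a 2-fold difference between the genotypes' changes, and that for Dcn at base 7 does not.

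Likeness between patterns was described by Pearson's r over the 12 arrays, at the brightest probe of each gene. Within the family, Lum and Ogn had an r of 0.84, Fmod and Prelp of 0.80 and Dcn (base 1260) and Bgn of 0.76, while Prelp and Ogn had -0.69. Outside the family, the genes most like Ogn were Igsf4a (0.990), Prss35 (0.986) and Rhpn2 (0.985), all 3 called lower after injury in both genotypes. Those most like Lum were Spint1 (0.986), 8430410K20Rik (0.975) and Cog6 (0.973), of which Spint1 was called lower in WT (log2 fold change -1.08) and lay just under the fold limit in KO (-0.98). Prelp was most like Hspg2 (0.980), Comp (0.977) and Smad4 (0.972), and Bgn most like Fth1 (0.983), Ubb (0.983) and Nsep1 (0.981). For Fmod these were 2810032G03Rik (0.948), Sbsn (0.936) and Smoc1 (0.929), for Dcn 1100001I22Rik (0.955), Snrpg (0.946) and 2010315L10Rik (0.937), and for Omd Sfxn4 (0.883), Abca17 (0.858) and 2810004N23Rik (0.838). All arrays share the group structure, so genes with similar group means have a high r. Bgn and Dcn at base 1260 had no called change, and Bgn was lowest in replicate 3 of each group. The part of differences between replicates in their r was not tested.

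In the lists below a gene counts as called where at least 1 of its probes was called, and medians are of the brightest probe of each gene. Of all 15424 gene symbols in the table, 8.36% had a probe called higher and 8.25% a probe called lower in WT, and 10.6% and 10.4% in Mapk9 KO. Other genes of the leucine-rich proteoglycan family changed in both directions. Of 9 further members, 5 were in the table, and in both genotypes 1 was called higher and 2 lower. Tsku, a secreted modulator of TGF-β and Wnt signals, was detected on all WT control arrays and on no WT injured array and fell at least 3.09-fold (adjusted p = 0.000241). In KO, where 1 of the 3 injured arrays detected it, its log2 fold change was -2.31 (adjusted p = 0.000316). Podnl1, a podocan relative, fell by 1.17 in WT (adjusted p = 0.00386) and by 1.80 in KO (adjusted p = 2.7e-05). Epyc, a class III member of growth plate cartilage next to Kera on chromosome 10, was undetected on all control arrays. It rose at least 1.19-fold in WT (adjusted p = 0.0467), where 2 of the 3 injured arrays detected it, and at least 1.65-fold in KO (adjusted p = 0.00176). Chad, which binds collagen and integrin on chondrocytes, had log2 fold changes of 0.80 (adjusted p = 0.0861) and -0.09 (adjusted p = 0.831). Podn was detected on 1 WT control array and on no other array, so no change is given for it. Ecm2, Kera, Optc and Nyx had probes outside the table only.

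Among 15 measured collagen genes whose fibrils the family binds, 3 had a probe called higher and 4 a probe called lower in WT (median -0.01), and 6 and 4 in Mapk9 KO (median -0.01). At the brightest probe alone the counts were 2 higher and 3 lower in WT and 3 and 4 in KO. The minor fibril collagens Col5a2 (log2 fold change -1.53 in WT, adjusted p = 0.000398) and Col14a1 (-1.25, adjusted p = 0.0235) and the type I chain Col1a2 (-1.46, adjusted p = 0.0028) fell in WT. Col9a2, a chain of the collagen on the surface of cartilage fibrils, rose by 1.55 (adjusted p = 0.00159). In KO these 4 changes were -1.03, -1.56, -2.44 and 1.37, all called. For fibril assembly and cross-linking, 16 genes were measured, with 3 higher and 6 lower in WT (median 0.19) and 5 higher and 6 lower in KO (median -0.01). At the brightest probe these were 3 and 5 in WT and 3 and 5 in KO. The lysyl oxidases split, with Loxl1 lower (-1.68 in WT, adjusted p = 0.00168) and Loxl4 (1.64, adjusted p = 0.000297) and Loxl2 (1.42, adjusted p = 0.00222) higher. Lox, named after its values were seen, was also called lower in WT (-1.14, adjusted p = 0.00567). The KO change of Lox, -0.91 (adjusted p = 0.00712), was under the fold limit. Adamts2, a procollagen peptidase, fell by 1.18 (adjusted p = 0.00512).

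Of 13 measured growth factors and receptors that bind the family, 3 had a probe called higher and 3 a probe called lower in WT (median 0.40; 3 and 2 at the brightest probe), and 4 and 2 in Mapk9 KO (median 0.28). Tlr2, a receptor for released biglycan, rose by 2.78 in WT (adjusted p = 2.01e-05) and by 2.87 in KO, and its co-receptor Cd14 by 5.01 (adjusted p = 1.13e-06) and 5.33. Igf1r, a receptor that decorin binds, rose by 1.51 in WT (adjusted p = 0.000915), while Bmp4 fell by 1.77 (adjusted p = 0.000863). Of 10 measured proteases, 2 had a probe called higher and 2 a probe called lower in WT (median -0.38), and 3 and 4 in KO (median -0.61). At the brightest probe these were 2 and 0 in WT and 3 and 3 in KO. The WT genes with a lower probe, named after their values were seen, were Bmp1, called at 2 of 4 probes, and Mmp13, called at 1 of 3, and their brightest probes had log2 fold changes of -0.81 (adjusted p = 0.0190) and 0.62 (adjusted p = 0.119). Adamts1 and Adamts4, which cleave cartilage proteoglycans, rose by 1.83 (adjusted p = 0.00082) and 1.66 (adjusted p = 0.00234) in WT. Of 17 measured enzymes that build or sulfate glycosaminoglycan chains, 1 rose and 0 fell in WT (median 0.24), and 5 rose and 0 fell in KO (median 0.33). The WT rise was Chst11, the chondroitin 4-O-sulfotransferase, at 1.78 (adjusted p = 0.000606), and its KO change was 2.13.

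Markers of other tissue moved on the same arrays. The hips expressed chondrocyte genes throughout, with all 13 measured chondrocyte markers detected on at least 1 array of each group, and 7 had a probe called higher and 1, Col11a1, a probe called lower in WT and 8 a probe called higher in KO (7 higher and 0 lower in each genotype at the brightest probe). The largest WT rises were of the matrix genes Matn1 (3.16, adjusted p = 0.000135), Acan (2.03, adjusted p = 0.00444), Col9a2 (above) and Hapln1 (1.36, adjusted p = 0.00135). The mean of the chondrocyte list was 10.85 to 11.37 in WT control, 12.18 to 12.38 in WT injured, 10.73 to 11.38 in KO control and 12.13 to 12.38 in KO injured cartilage. The 10 measured fibroblast, tendon and synovial lining markers had 4 falls and 1 rise in WT and 5 falls in KO, and their mean went from 8.24 to 8.50 in WT control to 7.32 to 7.84 in WT injured and from 8.25 to 8.52 in KO control to 7.21 to 7.50 in KO injured cartilage. Those that fell in WT were the microfibril gene Mfap5 (-1.88, adjusted p = 0.0311), Pdgfra (-1.88, adjusted p = 0.000561), the tendon factor Scx (-1.68, adjusted p = 0.00075) and Dpt (-1.05, adjusted p = 0.0356). Pdgfra was called at 1 of its 2 probes in each genotype. The WT rise, named after its values were seen, was of Dpp4 (1.04, adjusted p = 0.00985), called at 1 of 2 probes. In KO Dpp4 was not called (0.45, adjusted p = 0.0927). Of 15 measured skeletal muscle markers, 14 fell in WT and 15 in KO, with means of 11.28 to 12.79 in WT control, 8.24 to 10.39 in WT injured, 12.95 to 13.32 in KO control and 8.70 to 9.996 in KO injured cartilage. In WT the log2 fold changes were -3.57 for Actn3 (adjusted p = 0.00347), -3.37 for Ckmt2 (adjusted p = 0.00778) and -3.28 for the myosin heavy chain Myh1 (adjusted p = 0.0130). Only 1 of the 3 WT injured arrays detected Myh1. No WT injured array detected Myh4, whose fall was at least 5.60-fold (adjusted p = 0.0295). The part of these shifts in the lower values of Lum, Ogn and Dcn at base 7 was not tested.

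**Figure D4:**
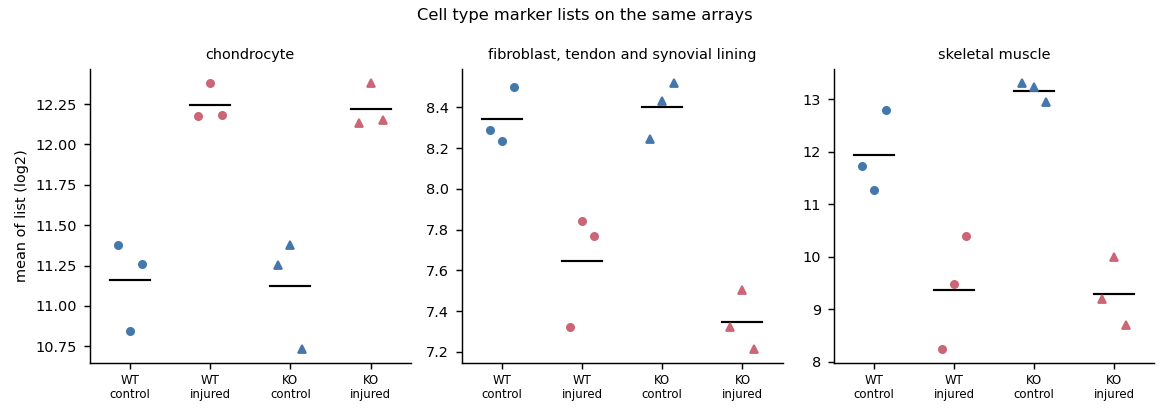
Mean log2 signal (y axis) of the chondrocyte, fibroblast, tendon and synovial, and skeletal muscle marker lists on each array (points, with a bar at the group mean) in the 4 groups (x axis); circles are WT and triangles Mapk9 KO. The chondrocyte mean is higher, and the fibroblast and muscle means lower, on every injured array than on every control array of the same genotype.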

How the data were processed

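RNA of mouse hip cartilage was measured on 12 arrays in 4 groups of 3, grouped by their labels. The authors deposited bead signal intensities with a detection p-value for 45281 probes, and log2 values that the authors made by background correction with negative control probes and vsn normalization, for 21004 probes; versions are not given in the sources used here. The number of arrays limits the precision.

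All probes of the table were fitted with limma 3.58.1 (lmFit, eBayes; R 4.3.3) within the 2 groups compared, or all 12 arrays for the interaction, with Benjamini-Hochberg adjustment. Tables were made with Python 3.11.15, pandas 2.3.3 and scipy 1.17.1. The fit was tested on simulated data. All family probes were named. From each gene list at most 4 genes with the largest called WT changes without overlap were named, and likeness gave 3 genes per member. Lox, Dpp4, Bmp1, Mmp13 and Col11a1 were named beyond this rule. Other leucine-rich proteoglycans were all named. A gene counted as called where at least 1 of its probes was called, and its value is that of its brightest probe. Where all arrays of a group lacked detection (p of 0.05 or above), the change is a bound: the mean of the other group was set against the dim group's mean after each of its values had been raised, where lower, to the dimmest detected signal of that array. Members and lists were chosen with earlier results of these data known, and the comparison of probes within a gene, unpaired and paired, was added after the data were seen.

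Replicate numbers are shared between groups. Deviations from group means correlated at 0.153 to 0.390 in the 18 pairs with the same number and at -0.289 to 0.0825 in the 36 others. Arrays with the same number were therefore treated as paired. The labels do not say what they share.

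The results were recomputed from the intensities with neqc (normexp, quantile; offset 16) and with quantile scaling but no background step, and from the log2 values with medians subtracted per array, detection on at least 3 arrays or on all arrays of a group, a replicate block, no fold limit, the methods' t-test, all 12 arrays in the fit, and each array left out.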

Additional observations from a re-analysis of the deposited data

How the results depend on the processing

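The number of family probes called stayed at 4 in WT and at 3 in Mapk9 KO under most alternatives. It was 3 in WT with the methods' t-test, and 2 in KO with quantile normalization without background correction, where Dcn at base 7 was lost. Leaving out 1 array gave 3 to 4 in WT and 3 to 4 in KO, and dropping the fold limit gave 8 in KO. Genotype counts were 0 under all alternatives, including each array left out, and so were interaction counts under those run for it, which leave out the methods' t-test, the fold limit (none applies) and the fit with all 12 arrays (already its own). With the replicate block, which pairs the arrays by replicate number, the counts were 4 in WT, 3 in KO and 0 for genotype and interaction, and no call of a family probe changed. In the comparison of probes within a gene, pairing was chosen after seeing the data. With it the 4 Dcn comparisons had the smallest exact p that 6 pairs allow, and their adjusted p of 0.05 was not under the threshold. As no smaller p was possible, the paired test cannot show whether pairing weakened these differences. The reversed signs given below were of changes that had not been called, the largest being 0.48 for Fmod at base 2046 in WT. The WT change of Dcn at base 1260 was -0.094 with normexp and quantile normalization and -0.094 with quantile normalization alone, and the interaction of Ogn was -0.014 with array medians subtracted. With 1 array left out, the ranges that crossed 0, among the injury changes and the interactions whose values are given above, were -0.049 to 0.24 for Dcn at base 3633, -0.17 to 0.82 and -0.072 to 0.42 for Fmod at bases 2046 and 2387 in WT, -0.44 to 0.086 for Bgn in KO, and -0.081 to 0.35 for Lum at base 1002 and -0.26 to 0.23 for Ogn in the interaction. The cause was not tested. No scaling moved the median of all probes by over 0.1. On the WT injured arrays the signal of the Dcn probe at base 7 came close to background (143 to 238, detection p up to 0.0438). On the WT control arrays it was 330 to 759. The WT change of this probe moved by over 1.5 times without background correction.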

Other observations

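Other cell type markers also moved on these arrays. Of 7 measured neutrophil markers, 4 had a probe called higher after injury in WT and in Mapk9 KO (2 at the brightest probe in each), where 8.36% and 10.6% of all genes did. The mean of the list was 12.65 to 13.27 in WT control and 13.71 to 13.93 in WT injured cartilage, but overlapped in KO, with 13.03 to 13.48 in control and 13.43 to 13.88 in injured cartilage, and the median change was 0.67 in WT and 0.11 in KO. The primary granule protease Elane rose by 1.96 in WT (adjusted p = 0.00026 by limma) and the secondary granule gene Ngp by 1.65 (adjusted p = 0.000272). Of 6 macrophage markers, 2 had a probe called higher and 2 a probe called lower in WT (1 and 2 at the brightest probe), with Csf1r, the receptor for macrophage colony-stimulating factor, at -1.87 (adjusted p = 0.000648) and Emr1 at -1.38 (adjusted p = 0.00624), beside the rise of Cd14. Of 10 bone cell markers, 1 had a probe called higher and 3 a probe called lower in WT (1 and 2 at the brightest probe), and 1 and 4 in KO (1 and 3). Among them Sp7, an osteoblast factor, fell by 1.14 (adjusted p = 0.0028) and Phex by 1.10 (adjusted p = 0.0127) in WT, and Runx2, detected on 1 of the 3 WT control arrays, rose by 1.34 (adjusted p = 0.00766). Of 4 adipocyte markers, 2 fell in WT and 3 in KO, with Lpl at -1.87 in WT (adjusted p = 0.000534). Cidec was also called lower in WT (adjusted p = 0.0259), but was detected on only 1 WT control array and on no WT injured array, so its fold is not given. Of 6 erythroid markers 1, Ermap, fell in both genotypes, and of 6 endothelial markers 1, Cdh5, rose in WT (1.13, adjusted p = 0.00519) and 0 in KO by limma.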
